A study of Mus musculus with 18 samples.

Results

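Regions of the mouse genome at which methylated DNA was found 1 h after myocardial infarction (MI) and not in sham hearts, or the reverse, were described from 6 methylated DNA immunoprecipitation sequencing (MeDIP-seq) libraries. The 3 MI 1 h libraries came from mice whose left anterior descending coronary artery had been tied 1 h earlier, and the 3 sham libraries (labelled control and 0 h) from mice that had the suture without the tie. All were male C57BL/6JR mice of 12 weeks, anaesthetised with sodium pentobarbital for the operation and with isoflurane before death; the pentobarbital dose was not used here because the labels give a different one for each MI 1 h sample. Per the labels the material was myocardial tissue with cardiomyocytes as its cell type; they describe no isolation of cells, and peak lists hold no expression values, so the cell type was not checked against its markers. The series holds 18 libraries in all. Peaks of the 6 libraries were merged wherever they overlapped by at least 1 base, which gave 106032 regions. A region was placed in the gained class when a peak was present in 3 of 3 MI 1 h libraries and in 0 of 3 from sham mice, and in the lost class in the reverse case. These classes held 343 gained regions (0.323% of all) and 850 lost regions (0.802%), 1193 members in all. The class names describe peak calls and not a measured gain or loss of methyl groups, and the rule itself used this contrast, so the counts carry no test.

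In mammals DNA methylation sits mostly on cytosines that are followed by a guanine (CpG). Most CpGs across the genome are methylated, whereas CpG-dense promoters usually are not, and methylation of such a promoter is generally linked to silencing of its gene. In MeDIP-seq an antibody against methylated cytosine pulls down sheared DNA, and a peak marks a place where pulled-down fragments pile up; it does not give the percentage of methylated molecules. In a coronary ligation model the first hour is the phase of ischaemia before white blood cells enter the heart in large numbers.

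Few members lay directly at the start of a gene, and among the promoters whose sequence was used here a merged member covered all 250 bases before the start at 1 gained and 4 lost ones. The gained one and 2 of the lost ones, chosen after their values were seen, are given to compare CpG-dense and CpG-poor stretches; the other lost ones were at Krt2 and Gm36327. Peaks of the single libraries covered 100% of the Scml1 stretch in 3 of 3 MI 1 h libraries, 100% of the Rab15 stretch in 3 of 3 sham libraries, and 92.8%, 100% and 100% of the Igflr1 stretch in sham replicates 1 to 3. They are RefSeq sequences of build GRCm38.p6, written 5′ to 3′ on the strand of the gene, with each CpG in capitals. The first belongs to a gained region and the second and the third to lost regions.
Scml1: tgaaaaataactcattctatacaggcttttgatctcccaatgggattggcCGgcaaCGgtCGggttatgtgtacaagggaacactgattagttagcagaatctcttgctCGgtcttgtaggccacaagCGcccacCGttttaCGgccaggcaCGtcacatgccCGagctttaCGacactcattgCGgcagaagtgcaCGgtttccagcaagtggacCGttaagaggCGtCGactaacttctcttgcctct
Igflr1: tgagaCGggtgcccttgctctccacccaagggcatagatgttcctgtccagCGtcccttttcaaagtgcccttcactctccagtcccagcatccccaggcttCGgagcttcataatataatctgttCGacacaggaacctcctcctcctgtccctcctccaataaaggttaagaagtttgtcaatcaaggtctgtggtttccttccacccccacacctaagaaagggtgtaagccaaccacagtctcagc
Rab15: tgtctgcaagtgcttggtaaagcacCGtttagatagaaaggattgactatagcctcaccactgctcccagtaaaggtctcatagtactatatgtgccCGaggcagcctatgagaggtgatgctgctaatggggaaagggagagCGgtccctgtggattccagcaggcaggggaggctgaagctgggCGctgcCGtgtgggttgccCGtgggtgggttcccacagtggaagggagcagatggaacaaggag
The Scml1 stretch (chrX:161832123-161832372, minus strand) holds 15 CpGs, and 36.7% of 21262 promoters of protein-coding genes had at least as many in the same 250 bases. Scml1 encodes a protein related to the Polycomb group, which keeps genes silent. The Igflr1 stretch (chr7:30565177-30565426, plus strand) holds 4 CpGs, a number that 71.0% of promoters reached. The Rab15 stretch (chr12:76819097-76819346, minus strand) holds 6 CpGs, a number that 62.2% of promoters reached. Over 163 promoter stretches touched by a region with a peak in all 6 libraries the median was 5 CpGs, against 10 over all promoters. A single gained stretch allows no comparison of the classes. Igflr1 encodes a receptor of the tumour necrosis factor receptor type and Rab15 a small GTPase of endosomes.

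The 6 libraries differed in the length of their lists, which touches each count below. The MI 1 h lists held 44454, 43400 and 45466 peaks and the sham lists 49404, 60130 and 44328. Sham replicate 2 was the longest list and sham replicate 3 lay among the MI 1 h lists, so the groups overlapped. The mean difference between MI 1 h and sham was -6847 peaks (44440.0 ± 1033 against 51287 ± 8068, SD, n = 3 each; two-sided exact permutation p = 0.3, adjusted p = 0.3 over 4 library measures). With 3 against 3 libraries this test cannot give a p below 0.1. The length under peaks was 46.6 ± 2.36 Mb at 1 h and 54.6 ± 7.07 Mb in sham (SD, n = 3 each), and its groups did not overlap (exact permutation p = 0.1, adjusted p = 0.267). With 43400 peaks kept in each list the difference went from -7.97 to -1.66 Mb (exact permutation p = 0.7). A promoter window, from 2000 bases before a gene start to 500 after it, was touched by 2.38% ± 0.0872 of peaks at 1 h and 2.47% ± 0.0832 in sham (SD, n = 3 each; exact permutation p = 0.2, adjusted p = 0.267). A protein-coding gene was touched by 46.1% ± 0.305 and 46.8% ± 0.883 of peaks (SD, n = 3 each; exact permutation p = 0.2, adjusted p = 0.267). No measure passed the threshold of 0.05.

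**Figure D1:**
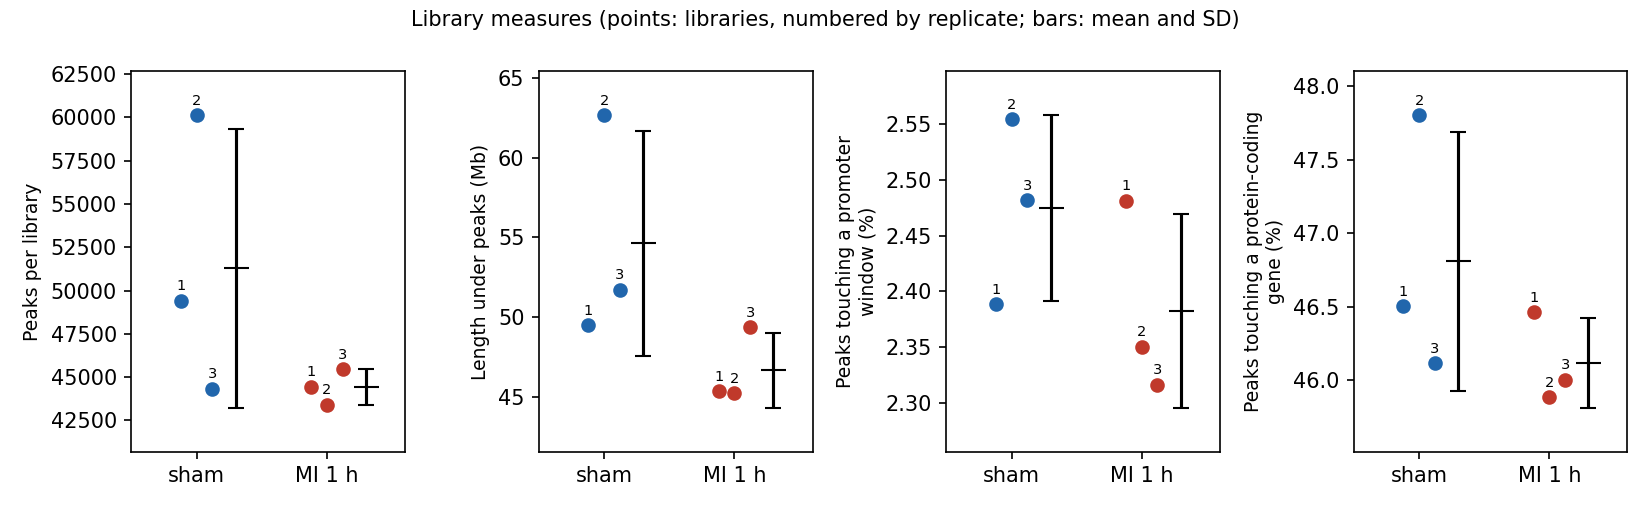
Number of peaks, length under peaks (Mb), and percentage of peaks at promoter windows and at protein-coding genes, by group; points are libraries numbered by replicate and bars are the mean and SD of 3. The vertical axes do not start at 0. The ranges of length under peaks are apart (highest MI 1 h library 49.4 Mb, lowest sham library 49.5 Mb) and those of the other measures overlap.

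The number of libraries with a peak showed how the members sit among all regions. A peak in all 6 libraries was found in 13720 regions (12.9%) and in 1 library alone in 41025 regions (38.7%). Just outside the rule lay 1417 regions with a peak in 3 of 3 MI 1 h and 1 of 3 sham libraries and 2565 with 2 of 3 against 0 of 3. On the side of sham the same neighbours held 2521 and 5118 regions. The overlap of 2 libraries, as bases under peaks of both over bases under peaks of either, ran from 0.366 to 0.377 over the 3 pairs at 1 h and from 0.359 to 0.374 over the 3 sham pairs. Over the 9 pairs between the groups it ran from 0.355 to 0.384, a range that holds both.

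**Figure D2:**
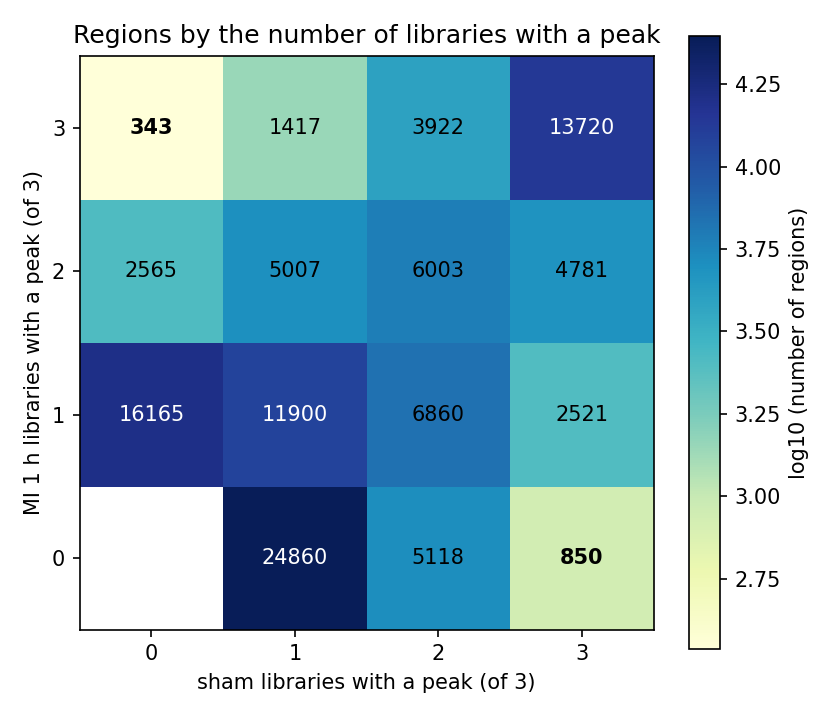
Number of merged regions (printed in each cell; the colour is its log10) by how many of 3 MI 1 h libraries (vertical) and 3 sham libraries (horizontal) had a peak. The gained class (343, upper left) and the lost class (850, lower right) are the smallest cells.

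When each list was cut to its 43400 top-scoring peaks, the length of the shortest one, 534 regions were gained (0.553% of 96623) and 493 lost (0.510%). The lost class was the larger one with all peaks and the smaller one with lists of equal length. The lowest score kept was 54.35, 61.64 and 50.62 in sham replicates 1 to 3 and 50.77, 50 and 51.46 in MI 1 h replicates 1 to 3. Of the 850 lost regions, 396 had at least 1 sham peak that fell outside these shorter lists, and in 227 of them the peak of sham replicate 2 was the only one to do so. Of the 534 regions gained from equal numbers, 227 did have a weaker sham peak in the full lists, 180 of them in sham replicate 2. The regions that met the rule in both ways numbered 307 gained (0.290% of all regions) and 454 lost (0.428%), and named regions were taken from these unless stated.

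Members were weak peaks by the lowest of their 3 scores. By the mean score they were near regions at large, with medians of 66.8 for gained, 68.7 for lost, 68.4 for mixed and 68.0 for all regions. Regions with a peak in all 6 libraries had 104.5. The score that the authors deposited for each peak starts at 50 in every list; its scale is not stated in the sources used here, and it serves here to rank and describe peaks. The lowest of the 3 scores of a gained region had a median of 55.1, from 50.02 to 92.04, and 73.8% of gained regions (253) were under 60. For lost regions the median was 56.3, from 50.01 to 118.65, with 67.9% (577) under 60. Regions with a peak in 3 of the 6 libraries that mixed both groups (11867, called mixed here) had a median lowest score of 56.2. Regions with a peak in all 6 had one of 70.2. Median widths were 1065 bases for gained, 1143 for lost and 1104 for mixed regions, against 1537 for regions in all 6.

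The members' places in the genome were much like those of regions at large. A protein-coding gene outside its promoter window held 49.6% of gained regions (170), 48.2% of lost regions (410) and 47.1% of all regions. Promoter windows held 6 gained regions (1.75%) and 21 lost regions (2.47%), against 2.53% of all regions. A long noncoding RNA gene alone held 9.33% of gained, 6.35% of lost and 7.39% of all regions. The remaining 135 gained and 365 lost regions lay between genes (39.4% and 42.9%, against 43.0% of all). Every chromosome held members of both classes: the gained share ran from 0.230% of the regions of chromosome 15 to 0.458% on chromosome 19, and the lost share from 0.532% on chromosome 13 to 1.08% on chromosome Y.

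A gained region lay in or within 2000 bases of 183 of 21883 protein-coding genes (0.836%), and a lost region of 457 (2.09%). For regions that met the rule in both ways these were 167 (0.763%) and 243 genes (1.11%). Genes with a member were long, with a median length of 83.2 kb for the gained and 79.6 kb for the lost class, against 27.3 kb for the 14828 genes with any region and 17.2 kb for all protein-coding genes. No set with the same number of regions was compared, so these lengths are not shown to be particular to members. Regions of both classes lay in or within 2000 bases of 19 of the 21883 protein-coding genes. One of them, picked after its values were seen, was Acbd6, an acyl-CoA binding protein. It held a gained region on chromosome 1 from 155569435 to 155570720 and a lost region from 155628116 to 155628873, and both met the rule in both ways.

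The gained regions at genes that ranked highest by their lowest score began with Slco1c1, a transporter of thyroid hormone and other organic anions. The region (chromosome 6 from 141526305 to 141526841, within the gene) scored 102.08, 98.47 and 92.03 in MI 1 h replicates 1 to 3. Next came a region 1738 bases from Txndc8, a thioredoxin-like gene (chromosome 4 from 57981139 to 57982283), with 83.04, 179.33 and 90.25. Replicate 2 stood well above the other two there. Within Atp13a5, a cation-transporting ATPase (chromosome 16 from 29373856 to 29374387), the scores were 82.99, 83.87 and 83.04. Within Nsd3, which encodes a histone methyltransferase (chromosome 8 from 25661542 to 25662615), they were 80.79, 82.48 and 82.95. The 3 libraries lay closest together at these last 2 regions among the 10 gained ones. Sham had no peak at any of them, as the rule requires.

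The other gained regions of this rank lay within A26c2 (chromosome 7 from 62781473 to 62782485), Pdss2, Pde4d, Cog5, Impg2 and Gatad2b. Pdss2 makes the side chain of coenzyme Q, the electron carrier of mitochondria, and its region (chromosome 10 from 43314645 to 43315277) scored 78.38, 86.02 and 92.03. Pde4d encodes a phosphodiesterase that breaks down cyclic AMP, the messenger of adrenergic signalling in heart muscle. Its region (chromosome 13 from 109697350 to 109698189) scored 78.14, 123.39 and 99.30, and 10 of the 12 libraries of the other MI times had a peak there. Cog5 belongs to a tethering complex of the Golgi (chromosome 12 from 31825432 to 31826491; 88.97, 77.65 and 92.03), Impg2 to the matrix around photoreceptors (chromosome 16 from 56218988 to 56220181; 88.42, 77.27 and 102.81), and Gatad2b to the NuRD complex, which links methylated DNA to histone deacetylation (chromosome 3 from 90314737 to 90315332; 92.40, 74.69 and 83.04). All 10 had peaks that covered at least 50% of the region in each MI 1 h library.

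The lost regions of highest rank were led by Syn2, which encodes a synapsin of nerve endings. The region (chromosome 6 from 115184224 to 115185279, within the gene) scored 119.92, 118.65 and 152.86 in sham replicates 1 to 3. Grik4, a kainate-type glutamate receptor subunit (chromosome 9 from 42635872 to 42638110), had 101.82, 128.93 and 140.90. Gabpb1, a subunit of the transcription factor GABP (chromosome 2 from 126651425 to 126652167), had 130.07, 114.72 and 100.62. These were the only 3 members whose score was at least 100 in all 3 libraries. They were absent at 1 h but present at other MI times: Syn2 in 10, Grik4 in 11 and Gabpb1 in 4 of the 12 libraries.

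Ephb1, an ephrin receptor of cell guidance, ranked next (chromosome 9 from 102085158 to 102086996) with 106.13, 91.46 and 92.45, and it held a second lost region (chromosome 9 from 102108279 to 102109722). Phc1, a subunit of Polycomb repressive complex 1 (chromosome 6 from 122319010 to 122320479), had 95.60, 138.15 and 88.59. Nrcam, an adhesion molecule of nerve cells (chromosome 12 from 44482175 to 44483310), had 104.95, 87.51 and 96.91. The last 4 lay within Efcab7 (chromosome 4 from 99903185 to 99904012), Them7 (chromosome 2 from 105372758 to 105375827), Gm3973 (chromosome 12 from 19520028 to 19522546) and Tbccd1, which helps to position the centrosome (chromosome 16 from 22841157 to 22842726), with lowest scores from 80.98 to 84.96. In Grik4, Them7 and Gm3973 the peaks of at least 1 sham library covered less than 50% of the region.

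**Figure D3:**
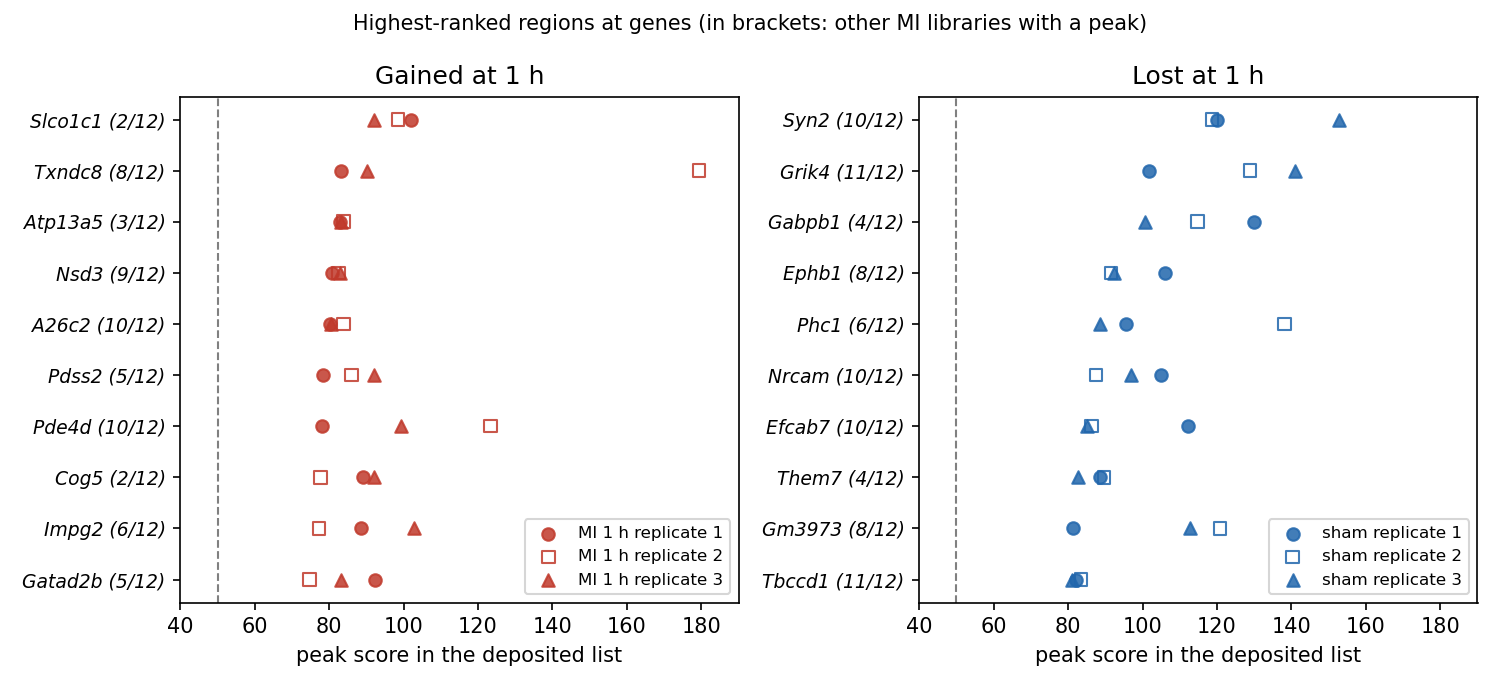
Deposited peak score (horizontal) of the 10 highest-ranked gained regions in the 3 MI 1 h libraries and of the 10 highest-ranked lost regions in the 3 sham libraries, labelled by gene with the number of the 12 other MI libraries that had a peak. The dashed line is the lowest score of the lists, 50; gained regions reach a lowest score of 92.03 and lost regions one of 118.65.

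Gene starts were compared separately, by asking for each of 17491 protein-coding genes with a start in the RefSeq promoter table whether a library had a peak in the window around it. The window was gained for 4 genes (0.0229%), namely Rpp25, Scml1, Slc16a11 and Tmem212 (the last no longer with equal numbers of peaks), and lost for 27 (0.154%). A window can be called where the merged region is not, because a peak of the other group may lie in the region but outside the window. From equal numbers of peaks the counts were 7 (0.0400%) and 15 (0.0858%). Among gained regions that met the rule both ways, those at promoter windows belonged to Rpp25, Scml1, Sec11a and Pde1a. At Sec11a and Pde1a the merged region touched a window, but the windows of these genes were not themselves called gained. Rpp25, a subunit of RNase P and RNase MRP, which process noncoding RNAs, had its region 1359 bases outside the gene (chromosome 9 from 57501382 to 57502743) with scores of 68.08, 60.65 and 62.78. Only 1 of the 12 other MI libraries had a peak there, at 10 min. At Scml1 (chromosome X from 161831543 to 161832544), whose sequence is shown above, the scores were 68.29, 57.63 and 74.81, and a second gained region lay within the gene (chromosome X from 161819129 to 161820231). Sec11a, the catalytic part of the signal peptidase (chromosome 7 from 80949395 to 80950386), had a lowest score of 54.07. Pde1a, a calcium-dependent phosphodiesterase (chromosome 2 from 80040440 to 80041617), had 51.97.

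Lost regions at promoter windows were led by Map6d1, a microtubule-binding protein (chromosome 16 from 20242380 to 20243679), with 112.61, 76.38 and 105.52 in sham replicates 1 to 3. The next one served a pair of genes, Cldn6, a claudin of tight junctions, and Tnfrsf12a, the receptor of the cytokine TWEAK, which is known to be induced in injured heart muscle (chromosome 17 from 23678145 to 23678989; 77.00, 95.50 and 71.60). Ubp1, a transcription factor (chromosome 9 from 113928584 to 113929662), had 89.85, 73.68 and 71.60, and Eva1a, a regulator of autophagy and cell death (chromosome 6 from 82038279 to 82039792), had 97.61, 87.63 and 71.53. Syt3, a synaptotagmin (chromosome 7 from 44381271 to 44383115), had 70.75, 88.61 and 85.80. In Map6d1 and Syt3 the peaks of at least 1 sham library covered less than 50% of the region. Each of these 5 regions had a peak in 5 to 10 of the 12 other MI libraries, which include those at 10 min. The median over all lost regions that met the rule both ways was 6. The lost regions at Igflr1 and Rab15, whose sequences are shown above, met the rule with all peaks alone, and their lowest scores were 60.62 and 51.67.

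Genes of heart function, injury response and neighbouring cell types were examined as 13 lists with 266 genes, all found in the gene table. A gained region lay in or near 2 of the 266 genes (0.752%, against 0.836% of all protein-coding genes) and a lost region in or near 7 (2.63%, against 2.09%). For 8 of the lists no gene had a member: the immediate early response genes such as Fos and Egr1, hypoxia and glycolysis, contraction, ion channels and gap junctions, leukocytes, fibroblasts and matrix, the DNA methylation machinery, and cell death. The 2 genes with a gained region were Flt1, a receptor for vascular endothelial growth factor, and Esrrg, a nuclear receptor that drives mitochondrial and fatty acid genes in the heart. At Flt1 (chromosome 5 from 147605397 to 147606727) the scores were 59.99, 51.28 and 56.95, all near the lowest score of the lists, and 1 of the 12 other MI libraries had a peak. At Esrrg (chromosome 1 from 187888360 to 187889210) they were 55.25, 58.79 and 76.03, and 3 of the 12 had one. Both genes also had peaks elsewhere, so that counted over the gene and 2000 bases around it 3 of 3 sham libraries had a peak as well.

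Inflammation genes contributed Sele and Nfkb1 to the lost class. Sele encodes E-selectin, by which endothelium slows passing leukocytes; its region (chromosome 1 from 164043677 to 164045368) scored 83.54, 77.88 and 59.45 in sham, and 1 of the 12 other MI libraries had a peak. Nfkb1 encodes a subunit of the inflammatory transcription factor NF-kappaB (chromosome 3 from 135587516 to 135590536; 78.93, 76.07 and 59.06), and there 7 of the 12 had one. At Nfkb1 the peaks of at least 1 sham library covered less than 50% of the region. Cardiac transcription factors contributed Tbx5 (chromosome 5 from 119812965 to 119814185; 54.63, 69.64 and 59.30) and Mef2a (chromosome 7 from 67232517 to 67233743; 56.89, 63.80 and 90.32), both regulators of heart muscle genes. Among calcium handling genes these were Itpr2, a calcium release channel (chromosome 6 from 146189392 to 146190833; 57.50, 65.47 and 76.62), and Jph2, which holds the membranes of the calcium release unit together (chromosome 2 from 163396472 to 163397774; 52.51, 52.76 and 55.46). The seventh was Ppargc1a, a coactivator that drives mitochondrial biogenesis (chromosome 5 from 51472434 to 51473895; 55.50, 50.49 and 112.87). Over the whole gene and 2000 bases around it, Nfkb1 and Mef2a had a peak in 0 of 3 MI 1 h libraries, Sele and Jph2 in 2, and Tbx5, Itpr2 and Ppargc1a in 3, against 3 of 3 sham libraries for each. Jph2 and Ppargc1a no longer met the rule with equal numbers of peaks.

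The share of a list's genes with a peak in or within 2000 bases was apart between the groups for 1 of the 13 lists (7.69%), the DNA methylation machinery. It was 47.4%, 47.4% and 52.6% at 1 h and 63.2%, 68.4% and 57.9% in sham. With equal numbers of peaks the sham values were 63.2%, 63.2% and 57.9% and those at 1 h did not move. Of the 19 genes, 8 had a peak in fewer libraries at 1 h than in sham, 1 in more and 10 in the same number. This count was not made over all protein-coding genes, and the sham lists held more peaks on average. The maintenance methyltransferase Dnmt1, the de novo enzyme Dnmt3b and its cofactor Dnmt3l each had a peak in 3 sham and 2 MI 1 h libraries. So did Mbd3 and the methyl-CpG binding proteins Mbd1 and Zbtb38. Tdg, a glycosylase that removes oxidised methylcytosine, had one in 2 sham libraries and in 0 at 1 h. Dnmt3a, Tet1, Tet2 and Tet3 had a peak in all 6. Over all protein-coding genes the share ran from 45.1% to 46.3% at 1 h and from 46.0% to 54.9% in sham.

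With equal numbers of peaks 3 of the 13 lists were apart (23.1%), and the other two lay the opposite way. Contractile genes had a peak in 58.3%, 54.2% and 54.2% at 1 h and in 45.8%, 41.7% and 37.5% in sham. With all peaks their shares overlapped, at 58.3%, 54.2% and 58.3% at 1 h and 50.0%, 58.3% and 37.5% in sham. The lowest score kept in the equal-number lists was 61.64 in sham replicate 2 and 50 to 51.46 at 1 h. With all peaks 9 of the 24 contractile genes had a peak in more libraries at 1 h and 3 in fewer; Myh7, the slow myosin heavy chain, had one in 2 MI 1 h and 0 sham libraries, and Csrp3, a Z-disc protein, in 0 and 2. Fibroblast and matrix genes had 66.7%, 58.3% and 62.5% at 1 h and 54.2%, 54.2% and 50.0% in sham. With all peaks their sham shares were 58.3%, 58.3% and 50.0%, those at 1 h did not move, and the groups met at 58.3%. With all peaks 5 of these 24 genes had a peak in more libraries at 1 h, 1 in fewer and 18 in the same number. Mmp9, a matrix protease, had a peak in 3 MI 1 h libraries and 1 sham library, and Col1a2 in 2 and 3. Neither balance was set against all protein-coding genes. With equal numbers of peaks the share over all protein-coding genes was 45.6%, 45.1% and 45.1% at 1 h and 45.2%, 46.2% and 45.5% in sham. The lists hold only 19 to 24 genes and were chosen with earlier results of these data known, so no p is given.

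The 12 libraries of the other MI times, which the rule did not use, were then read at the same regions. A peak was found at 38.7% ± 6.88 of the gained regions and at 43.7% ± 8.69 of the lost regions (SD, n = 12 libraries), against 42.2% ± 7.74 of the mixed regions. The lost share was above the gained share in 12 of 12 libraries, by 0.278 to 9.35 percentage points. With the regions that met the rule in both ways this also held in 12 of 12 libraries, by 1.35 to 10.8 points. Among those regions the median of the lowest score was 61.1 for the lost and 55.8 for the gained ones. These medians start from unlike floors, since the lowest score kept was 61.64 in sham replicate 2 and 50 to 51.46 at 1 h. With all peaks they were 56.3 and 55.1. The part of peak strength in the differences between lost and gained shares was not tested. The lowest shares were those of the shortest of these lists and the highest those of the longest: 6 h replicate 3 (34255 peaks), had 25.9% of gained and 29.2% of lost regions, and 72 h replicate 2 (60653 peaks), had 49.9% and 58.1%. The part of list length in these shares was not tested.

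Neighbouring times were read in the same way. All 3 libraries at 10 min had a peak at 9.62% of gained, 10.8% of lost and 9.08% of mixed regions. At 6 h these shares were 6.41%, 8.94% and 8.52%, at 24 h 8.75%, 12.4% and 12.3%, and at 72 h 14.6%, 19.6% and 17.2%. A median of 5 of the 12 libraries had a peak in each of the gained, lost and mixed classes.

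**Figure D4:**
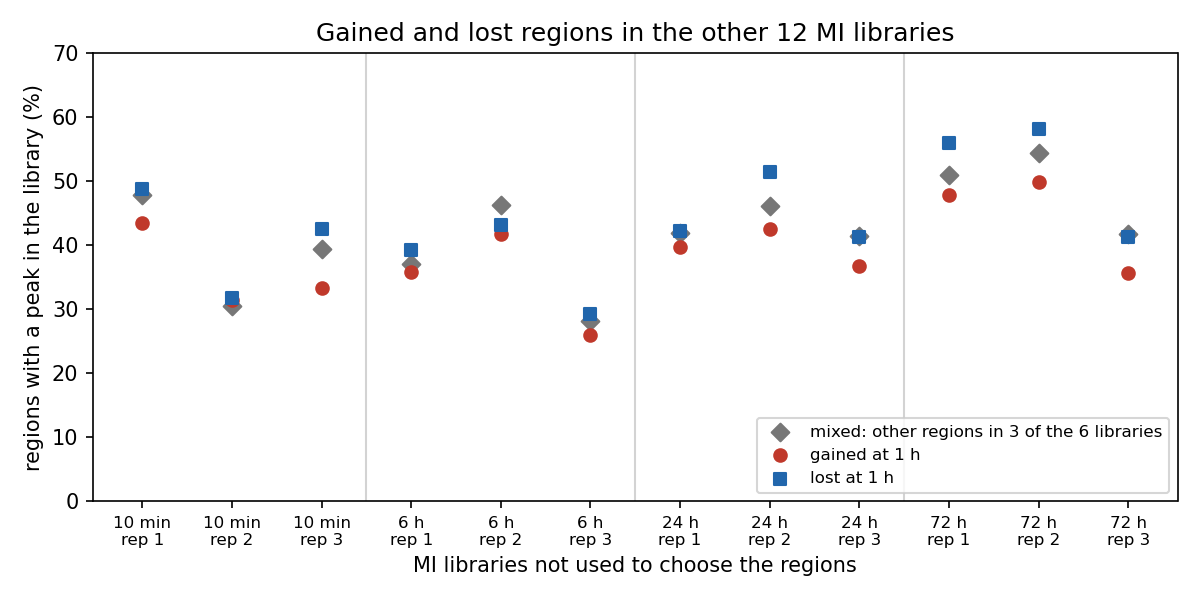
Percentage of gained, lost and mixed regions (those with a peak in 3 of the 6 libraries of both groups) with a peak in each of the 12 MI libraries at other times. Lost regions lie above gained regions in all 12 libraries, by 0.278 to 9.35 percentage points, and mixed regions lie near both.

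At some members all other libraries of the 18 had the call opposite to that at 1 h. They were picked after their values were seen, and the rule had fixed the calls of 6 libraries. Against mixed regions, the share of such regions was higher in the gained class and lower in the lost class. A peak in 3 of 3 MI 1 h libraries and none of the 15 others was found at 15 gained regions (4.37% of gained; 2.77% of mixed regions and 1.41% of lost regions had no peak in the 12 libraries). Of the gained regions that met the rule both ways this held for 10 of 307 (3.26%). The highest ranked of them lay within Lrp1b, a receptor of the low-density lipoprotein receptor family (chromosome 2 from 42004868 to 42005608), with 100.31, 65.38 and 90.55. It was followed by Sez6l (chromosome 5 from 112552483 to 112554198), with 84.91, 89.18 and 58.61. The reverse, a peak in all sham and all 12 other MI libraries and in none at 1 h, was found at 2 lost regions (0.235% of lost; 0.447% of mixed regions had a peak in all 12 libraries). One lay within Rnpepl1, an aminopeptidase-like gene (chromosome 1 from 92916957 to 92918457; 72.40, 57.23 and 67.22 in sham), which did not meet the rule with equal numbers of peaks, and the other 83031 bases from Gm21627 (chromosome Y from 63145726 to 63146820; 114.63, 135.80 and 59.87). Another 12 lost regions had a peak in sham alone.

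Several genes held more than one member that met the rule both ways. Gained pairs lay in Abcc4, an exporter of cyclic nucleotides, Dab1, Gfra1, Lyzl4, Scml1 and Stox2, and lost pairs in Ephb1, Fbxl17, Pde11a, St6galnac3, Synj2 and Tmem108. Lyzl4 and Fbxl17 also held or adjoined a member of the opposite class, which met the rule with all peaks alone. In the lost Fbxl17 region on chromosome 17 from 63352927 to 63353990, peaks of at least 1 sham library covered less than 50%. Abcc4 (225 kb) had its regions on chromosome 14 from 118533485 to 118534678 and from 118635774 to 118639443, with lowest scores of 52.20 and 67.06. In the latter region the peaks of at least 1 MI 1 h library covered less than 50%. Pde11a, a phosphodiesterase of both cyclic nucleotides (353 kb), had its lost regions on chromosome 2 from 76067987 to 76069122 and from 76079701 to 76080550, with lowest scores of 53.48 and 57.98. The place of members relative to exons was not analysed here.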

How the data were processed

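Per the submitters' processing notes, Bowtie2, MACS2 and mm10 were used; roles, versions, options and any input library are not given in the sources used here. The authors deposited 1 peak list for each library with a score for each peak (scale not stated, lowest value 50). Reads were not used, so depth is unknown and no interval for counting error is given. Positions are printed counted from 1 on mm10. Gene spans, starts, strands and promoter sequences are from RefSeq GRCm38.p6, the same build: 3.48% of windows of gene starts touched a region, against 6.80% and 6.28% at 5000 bases to either side, and the dip was gone with the table moved by 20000 bases (6.79% and 7.10%). A start was found for 17491 of 21883 protein-coding genes.

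Regions were merged with Python 3.11.15 and pandas 2.3.3. In simulated lists made of whole merged regions, 200 planted gained and 200 planted lost regions were all recovered. Planted regions kept the same edges in each list, so this checks the code alone and says nothing about recovery from real peaks. Library measures were compared with two-sided exact permutation tests and Benjamini-Hochberg adjustment. Labels call the 3 mice of a group separate animals; the same replicate numbers in both groups are no stated pairing, and over regions the deviations of same-numbered libraries from their group means had r of -0.0223, 0.000775 and 0.0275. No 2 of the 6 lists were copies.

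The members and lists were chosen with earlier results of these data known. Named are the 10 gained and 10 lost regions at genes and up to 5 at promoters with the highest lowest score. Listed genes with a member and genes with 2 or more members are named too. The genes named from the DNA methylation machinery, contractile, and fibroblast and matrix lists have no member and fall outside this rule. Others are said to be picked later. Alternatives were a score of at least 100, equal peak numbers, 50% cover, merging within 200 bases, a window of 1000 bases, pairing, and leaving out each library.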

Additional observations from a re-analysis of the deposited data

How the results depend on the processing

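The 4 library measures kept their direction in each alternative run; their tests could not reach 0.05 with 3 against 3 libraries, so no call could change. With equal numbers of peaks the differences shrank to -1.66 Mb, -0.0530 percentage points at promoters and -0.137 points at genes; with a score of at least 100 they were -2393 peaks, -3.17 Mb, -0.116 and -2.04 points. The differences between MI 1 h and sham ran, with 1 library left out, from -10327 to -2426 peaks, from -10.5 to -3.95 Mb, from -0.142 to -0.0525 percentage points at promoters and from -1.04 to -0.194 points at genes. The fit with the replicate number as a block leaves the difference at -6847 peaks and cannot give a p below 0.25. A score of at least 100 gave 53 gained and 204 lost regions, with 0 gained and 8 lost promoters. Most of these regions were not members, since weaker peaks of the other group do not count at this setting. Only 0 gained and 3 lost members scored at least 100 in all 3 libraries. Equal numbers gave 534 and 493 regions, with 7 and 15 promoters, and a window of 1000 bases gave 12 lost promoters. Asking for 50% cover (382 and 889) or merging within 200 bases (341 and 848) moved the counts little. Leaving out 1 library asks for 2 libraries in place of 3 in one group, and each omission raised the counts by its construction. They ran from 608 to 1232 gained and 1667 to 3102 lost regions, 9 to 27 and 49 to 84 promoters, and with equal numbers from 1028 to 1734 and 1057 to 1732. Sham replicate 3 gave both the lowest gained and the highest lost count with all peaks. With no read counts, weak peaks near the lowest score cannot be told from absent ones.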
